A study of Mus musculus with 7 samples.

Results

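Pabpn1l and 9 further genes that act in the removal of maternal mRNA were followed in single germinal vesicle (GV) oocytes, the prophase-arrested oocytes of the ovary, with and without the histone methyltransferase gene Setd1b. The 10 genes were Pabpn1l, its paralogue Pabpn1, the adaptor Btg4, the CCR4-NOT genes Cnot1, Cnot6l, Cnot7 and Cnot8, the RNA-binding protein gene Zfp36l2, and the deadenylase genes Pan2 and Pan3. They were named as a list led by Pabpn1l, which was selected on its difference between the genotypes in these same libraries. Values for the 10 genes are therefore given as a description, with standard errors and without p-values, and how many of them passed the threshold used for other genes is stated once, as a description too. Of 33437 transcripts in the deposited table, 10 were taken, 1 for each gene. The deposited gene name found 6 of them. The rows of Pabpn1l, Pabpn1, Cnot1 and Cnot7 carried the name of an overlapping gene and were identified by their span and strand in the GENCODE M21 annotation.

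All oocytes came from females aged 21 days, labelled C57BL6 (a C57BL/6OlaHsd background in the methods of the study), that were, by their labels, homozygous for a floxed Setd1b allele. In the conditional knockout (Setd1b cKO, 4 libraries) the females also carried Gdf9-Cre, which is expressed in oocytes from early folliculogenesis, so that Setd1b would have been present up to that stage. The Setd1b WT females (3 libraries) were Gdf9-Cre negative by their labels, although the methods of the study also count females with 1 floxed allele and Gdf9-Cre as WT. Each library was made from 1 oocyte, and which of them shared a mother is not given, so p-values measure the spread between these oocytes only. Expression is given as RPM, in which each library is scaled to 1000000 mapped reads, and a change in the total RNA of an oocyte would not show in it. Levels of different genes were compared per kilobase of annotated exon.

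A full-grown oocyte stops transcribing and relies on stored mRNA, most of which is destroyed between meiotic maturation and the activation of the embryonic genome. Much of this clearance starts with removal of the poly(A) tail by the CCR4-NOT complex, whose scaffold is CNOT1 and whose deadenylase subunits are CNOT6L, CNOT7 and CNOT8. BTG4 brings the complex to maternal mRNAs, PABPN1L is an oocyte poly(A)-binding protein that acts together with BTG4, and ZFP36L2 recruits the complex to AU-rich messages.

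Libraries held 8582493 to 12972366 mapped reads, so 1 read was worth 0.0771 to 0.117 RPM. Reads outside the transcript set made up 13.2 to 16.4% of a cKO library and 9.57 to 9.90% of a WT library, without overlap. Setd1b itself stood at 8.31, 16.7, 12.8 and 2.68 RPM in cKO libraries 1 to 4 and at 17.7, 16.3 and 8.61 RPM in WT libraries 1 to 3 (exact two-sided permutation test, p = 0.40, where 0.057 is the smallest p that 4 against 3 allows, so no call was possible). The ranges of the genotypes overlapped. The files do not show the floxed part of the gene on its own. Of 11 oocyte markers, 10 were at 20 RPM or more in every library, and their sum was 21179 to 22271 RPM in the cKO and 25266 to 26550 RPM in the WT. The 12 granulosa cell markers summed to 117 to 280 RPM in the cKO and 89.4 to 270 RPM in the WT, most of it from Serpine2, Nr5a2 and Cyp19a1. The other 9, which include Amh, Foxl2 and Inha, summed to 1.98 to 19.0 RPM and 1.87 to 5.01 RPM. The first principal component held 39.6% of the variance and the second 31.0%. The second set cKO library 4 and WT library 3 apart from the other 5 libraries.

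Pabpn1l showed the largest separation of the 10 genes. Its transcript lies at chr8:122619706-122622842 on the minus strand (GRCm38). Gm20388, under whose name the row was deposited, is annotated on the plus strand, and since the strand of counting is not known, reads of Pabpn1l and of an opposite-strand transcript cannot be told apart. Pabpn1l was read at 18.3, 18.7, 15.9 and 8.51 RPM in cKO libraries 1 to 4 and at 305, 202 and 197 RPM in WT libraries 1 to 3. Every cKO oocyte was below every WT oocyte by a wide gap, and cKO library 4 was the lowest of all. The group means were 15.4 ± 4.73 RPM (SD, n = 4) and 235 ± 61.0 RPM (SD, n = 3), a ratio of 15.3 of WT over cKO. These values rest on 73 to 227 reads in a cKO library and 2109 to 3770 reads in a WT library, so the row was low and not empty in the cKO. By the limit of strand, whether the reads left in the cKO are of Pabpn1l cannot be told. On the log2(RPM + 1) scale the difference, cKO minus WT, was -3.88 (SE 0.30), the 3rd most negative of 18179 transcripts that reached 1 RPM in 3 or more libraries. Without cKO library 4 and WT library 3 the difference was -3.74.

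Pabpn1, which encodes the nuclear poly(A)-binding protein found in most tissues, did not share this pattern. Its row was at 20.5, 16.6, 19.8 and 36.9 RPM in cKO libraries 1 to 4 and at 15.6, 17.1 and 25.2 RPM in WT libraries 1 to 3. The genotypes overlapped, the highest value being that of cKO library 4, and the log2 difference was 0.23 (SE 0.30). Its row covered 0.645 of the joint span with the annotated gene and was deposited under the name of a second gene on the same strand, so the reads of the 2 genes cannot be told apart. Within a library, Pabpn1l had 7.84 to 19.5 times the reads of Pabpn1 in the WT and 0.230 to 1.13 times in the cKO. A ratio within a library does not depend on how libraries are scaled. Per kilobase of exon, Pabpn1l was at 19.1, 19.5, 16.6 and 8.88 RPM in cKO libraries 1 to 4 and Pabpn1 at 7.33, 5.92, 7.07 and 13.2 RPM. Pabpn1l was thus above the joint row of Pabpn1 in 3 of the 4 cKO oocytes and below it in cKO library 4. In the WT Pabpn1l lay at 206 to 319 RPM per kilobase against 5.59 to 9.00 for that row. The exon length used for the row was that of Pabpn1 alone, so its level per kilobase is approximate.

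**Figure D1:**
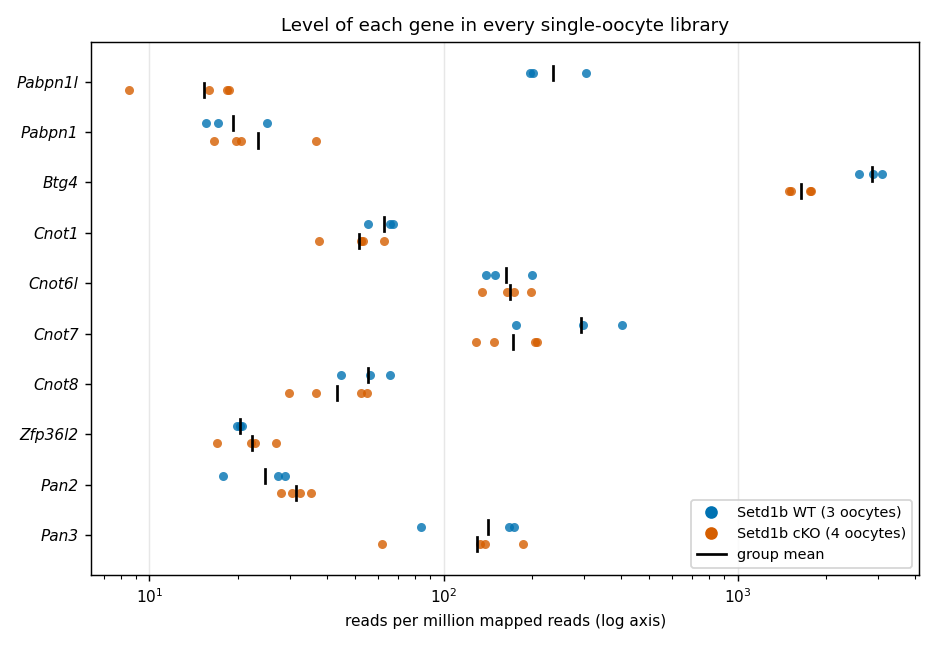
RPM (log axis) of the 10 genes in each of the 3 WT and 4 cKO oocytes, 1 point for a library, with a black line at each group mean. Pabpn1l lies at 8.51 to 18.7 RPM in the cKO and at 197 to 305 RPM in the WT, Btg4 separates by a smaller step, and the genotypes overlap in the other 8 genes.

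The sequence upstream of the start site is shown for the members whose contrast the comparison turns on: Pabpn1l and Btg4, which were lower in every cKO oocyte, and Pabpn1 and Cnot6l, whose genotypes overlapped. CXXC1, a partner protein in the SETD1B complex, can bind unmethylated CpG dinucleotides, so each CpG is in capitals and all other bases are in lower case. The study, however, links SETD1B to gene expression, and a second methyltransferase, MLL2, to CpG content. It reports fewer CpG than in random regions where the histone mark of these enzymes, H3K4me3, was lost in the cKO. Each line holds the 250 bases before the RefSeq transcription start (GRCm38.p6), 5′ to 3′ on the strand of the gene. The windows are chr8:122622736-122622985 (minus) for Pabpn1l, chr14:54893893-54894142 (plus) for Pabpn1, chr9:51115751-51116000 (plus) for Btg4 and chr5:96161991-96162240 (minus) for Cnot6l.
Pabpn1l: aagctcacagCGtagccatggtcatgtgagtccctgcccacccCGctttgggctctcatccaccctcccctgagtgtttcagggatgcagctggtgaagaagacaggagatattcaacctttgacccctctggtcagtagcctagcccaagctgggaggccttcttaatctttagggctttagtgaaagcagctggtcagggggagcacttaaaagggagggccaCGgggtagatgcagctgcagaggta
Pabpn1: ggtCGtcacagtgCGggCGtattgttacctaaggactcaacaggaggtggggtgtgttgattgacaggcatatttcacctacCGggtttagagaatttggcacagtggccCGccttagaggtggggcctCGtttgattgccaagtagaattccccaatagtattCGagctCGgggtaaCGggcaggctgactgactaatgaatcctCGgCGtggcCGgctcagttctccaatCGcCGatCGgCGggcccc
Btg4: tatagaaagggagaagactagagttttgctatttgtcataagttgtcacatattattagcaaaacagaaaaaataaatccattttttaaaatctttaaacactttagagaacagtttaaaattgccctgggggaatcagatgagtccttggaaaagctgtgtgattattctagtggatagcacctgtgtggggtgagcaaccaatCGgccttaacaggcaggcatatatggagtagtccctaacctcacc
Cnot6l: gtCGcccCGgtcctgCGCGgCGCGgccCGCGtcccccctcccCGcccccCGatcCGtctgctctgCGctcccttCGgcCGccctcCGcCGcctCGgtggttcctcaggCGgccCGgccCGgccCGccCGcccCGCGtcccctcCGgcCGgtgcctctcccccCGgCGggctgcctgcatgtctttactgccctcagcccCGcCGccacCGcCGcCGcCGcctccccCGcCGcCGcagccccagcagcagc

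The Pabpn1l window held 3 CpG dinucleotides and the Btg4 window 1, against 16 for Pabpn1 and 37 for Cnot6l. Over 32851 such windows of 27025 genes the median was 6 CpG, with quartiles of 2 and 16, so Pabpn1l and Btg4 lay in the lower part of the range and Cnot6l in the upper part. The Cnot6l window, however, lay wholly inside the deposited transcript, which begins 942 bases further upstream, so it is not the sequence upstream of the transcript measured. The deposited transcripts of Pabpn1l, Btg4 and Pabpn1 also began upstream of the RefSeq start, and covered 107, 128 and 115 of the 250 bases. The ratio of observed to expected CpG was 0.156 for Pabpn1l and 0.113 for Btg4, against a median of 0.374. Of the other genes with a window, Cnot8 had 21 CpG, Pan2 14 and Pan3 23, and 57 windows of further mRNA decay genes had a median of 18 and a range of 0 to 37. Few CpG were not particular to Pabpn1l and Btg4: Nanos2 with 0 and Samd4, Noct and Angel2 with 2 each, all with overlapping genotypes and named after their values were seen, had fewer than Pabpn1l. Of the 57 windows, 17 lay wholly inside the deposited transcript, Noct and Angel2 among them. For the 6 genes other than Cnot6l the annotated start lay within 128 bases of the 5′ end of the deposited transcript. With 7 windows, of which 2 belong to genes picked out by their level, this is a description of sequence and no test was made of it. Searched on both strands, TATAAA (the TATA box, in 12.4% of all windows) and the letters TAATTG and TAATTA, bound by the oocyte factor NOBOX (in 7.17% and 4.84%), were in none of the 7 windows. CCAAT (in 33.8%) was found 2 times in Pabpn1, 1 time in Btg4 and 3 times in Pan2.

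**Figure D2:**
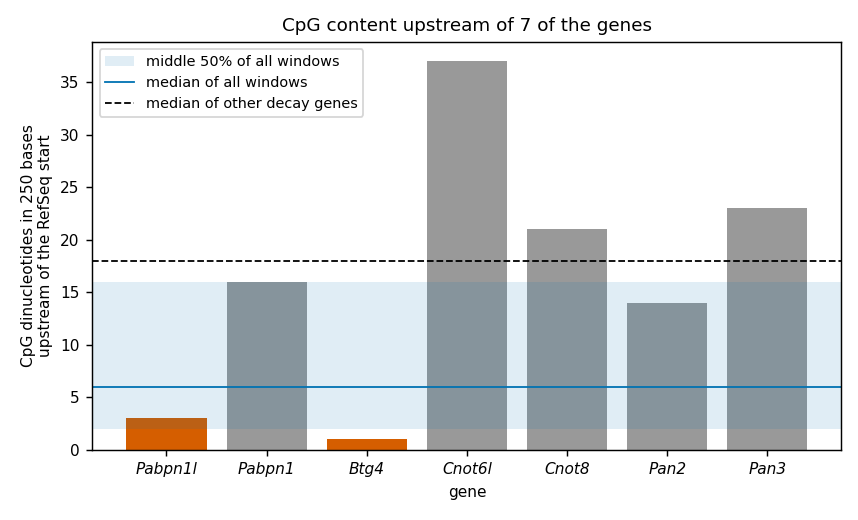
Number of CpG dinucleotides in the 250 bases upstream of the RefSeq start of the 7 genes with a window, with the median (line) and the middle 50% (band) of 32851 windows and the median of 57 windows of other decay genes (dashed). Pabpn1l with 3 and Btg4 with 1 have the shortest bars, and Cnot6l with 37 the tallest, in a window that lies inside its deposited transcript.

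Of the neighbours of Pabpn1l within 50 kb, 5 transcripts were past the filter on low values, and 0 of the 5 passed the test (limma, adjusted p under 0.05 over all 18179 transcripts and more than 2-fold), where 1.95% of all transcripts were called lower and 3.76% higher. By voom, 0 of 5 passed as well, and 1, Cbfa2t3, had an unadjusted p under 0.05 in the limma fit, on the lower side, as did 7.52% of all transcripts. All 5 were deposited as Gm20388, as was Pabpn1l, and are named here by their GENCODE span and strand. The same limit of strand holds for Aprt, Galns and Cbfa2t3 on the minus strand. Cdt1 and Trappc2l lie on the plus strand, as Gm20388 does, so counting by strand would not tell their reads from its reads. Trappc2l, on the opposite strand 4152 bases downstream, was at 44.1 to 111 RPM in the cKO and 55.3 to 111 RPM in the WT (log2 difference -0.05, SE 0.35, limma adjusted p = 0.963). Galns (-0.39, limma adjusted p = 0.473), Aprt (-0.03, 0.966) and Cdt1 (0.50, 0.290), all further downstream, also had overlapping groups. The nearest gene upstream, Cbfa2t3, a transcriptional corepressor gene on the same strand 5929 bases away, was at 1.09, 1.89, 2.44 and 3.26 RPM in the cKO and 5.10, 5.86 and 3.46 RPM in the WT. Its groups did not overlap, as in the 7.14% of all transcripts with every cKO library below every WT library, and its difference of -0.90 (SE 0.32) missed the threshold (limma adjusted p = 0.133).

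Btg4, the adaptor, had the most reads of the 10 genes in both genotypes. Its row, at chr9:51115873-51125362 on the plus strand, shares 0.0621 of the joint span with the GENCODE gene, which starts far upstream and ends before the row does. Exon length was counted inside the row only, so the level of Btg4 per kilobase is approximate. It was read at 1779, 1759, 1523 and 1491 RPM in cKO libraries 1 to 4 and at 2885, 3092 and 2597 RPM in WT libraries 1 to 3. All 4 cKO oocytes were below all 3 WT oocytes, with a gap between 1779 and 2597 RPM. The means were 1638 ± 152 RPM (SD, n = 4) and 2858 ± 249 RPM (SD, n = 3), a ratio of 1.74 of WT over cKO. The log2 difference was -0.80 (SE 0.22), short of 2-fold, and its size depended on the scaling, from -0.96 with each library centred on its median to -0.47 with quantile normalisation. The sum of the oocyte markers was also lower in the cKO without overlap, and its part in the Btg4 difference was not tested. A deposited row of 305 bases on the opposite strand within Btg4 held 78.2 to 119 RPM in the cKO and 145 to 200 RPM in the WT. Btg4 exceeded this row 14.7 to 19.1 times in each of the 7 libraries, so the pair kept nearly 1 ratio, and whether counting used strand is not stated.

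Pabpn1l differed more between the genotypes than Btg4, so the ratio of these partner transcripts was not the same in both. There were 9.45, 15.3 and 13.2 Btg4 reads for each Pabpn1l read in WT libraries 1 to 3 and 97.2, 94.1, 95.6 and 175 in cKO libraries 1 to 4. The first 3 cKO oocytes were close to each other and cKO library 4 stood highest. Per kilobase of exon, Btg4 was at 1509 ± 131 RPM (SD, n = 3) in the WT and 865 ± 80.2 RPM (SD, n = 4) in the cKO, and Pabpn1l at 245 ± 63.7 RPM and 16.0 ± 4.94 RPM.

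Zfp36l2 could not be assigned a level of its own. The row under its name spans chr17:84183901-84466256 and covers Thada as well. It was at 22.2, 26.9, 22.9 and 17.0 RPM in cKO libraries 1 to 4 and at 19.9, 20.3 and 20.7 RPM in WT libraries 1 to 3. The WT values lay inside the cKO range, with a log2 difference of 0.11 (SE 0.23) for the joint row.

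The genotypes overlapped in all 4 genes of the CCR4-NOT scaffold and deadenylases. Cnot1, the scaffold on which the complex is built, was at 53.0, 62.5, 52.5 and 37.6 RPM in cKO libraries 1 to 4 and at 65.7, 67.3 and 55.6 RPM in WT libraries 1 to 3. Only WT library 3 fell within the cKO range, and the log2 difference was -0.30 (SE 0.23). Its row was deposited as Setd6, a gene of the opposite strand, so the same limit of strand holds for it. Cnot6l, the catalytic subunit that is prominent in mouse oocytes, was at 174, 199, 164 and 135 RPM in the cKO and 150, 200 and 139 RPM in the WT. The ranges almost coincided, with a log2 difference of 0.05 (SE 0.22).

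Cnot7 and Cnot8 encode the interchangeable deadenylase subunits of the other catalytic type. Cnot7 was at 209, 205, 148 and 129 RPM in cKO libraries 1 to 4 and at 297, 405 and 177 RPM in WT libraries 1 to 3. WT libraries 1 and 2 were above every cKO library while WT library 3 lay within their range, and the log2 difference was -0.71 (SE 0.30). Single WT libraries set its size, since it was -0.44 without WT library 2 and -1.03, past 2-fold, without WT library 3. The Cnot7 row, deposited as Zdhhc2, also overlaps a transcript on the opposite strand and shares this limit. Cnot8 was at 52.6, 54.8, 36.7 and 29.8 RPM in the cKO and 65.6, 56.1 and 44.8 RPM in the WT. As in Cnot7, cKO library 4 and WT library 3 were the lowest of their genotype, and the log2 difference was -0.37 (SE 0.27).

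Within libraries, the reads of Cnot6l over those of Cnot1 came to 3.28, 3.18, 3.12 and 3.59 in the cKO and 2.28, 2.97 and 2.51 in the WT. This ratio did not overlap between genotypes although neither gene did so alone; it was 1 of 7 ratios computed, was looked at with the values in view, and was not tested. Cnot7 over Cnot8 was 3.74 to 4.34 in the cKO and 3.94 to 7.22 in the WT, and Btg4 over Cnot7 was 8.53 to 11.5 and 7.63 to 14.7, both with overlap.

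Pan2, the catalytic subunit of the deadenylase that trims long tails, was at 27.9, 30.6, 32.4 and 35.5 RPM in cKO libraries 1 to 4 and at 27.5, 28.8 and 17.8 RPM in WT libraries 1 to 3. The cKO value of library 1 lay below the WT value of library 2, so the genotypes overlapped, and the lowest value was that of WT library 3. The log2 difference was 0.37 (SE 0.24), and 0.10 without cKO library 4 and WT library 3. Pan3, its regulatory partner, was at 133, 186, 139 and 61.8 RPM in the cKO and 167, 174 and 83.8 RPM in the WT. Its lowest value in each genotype came from the 2 libraries that the second principal component set apart, and the log2 difference was -0.16 (SE 0.38), the largest error of the 10.

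**Figure D3:**
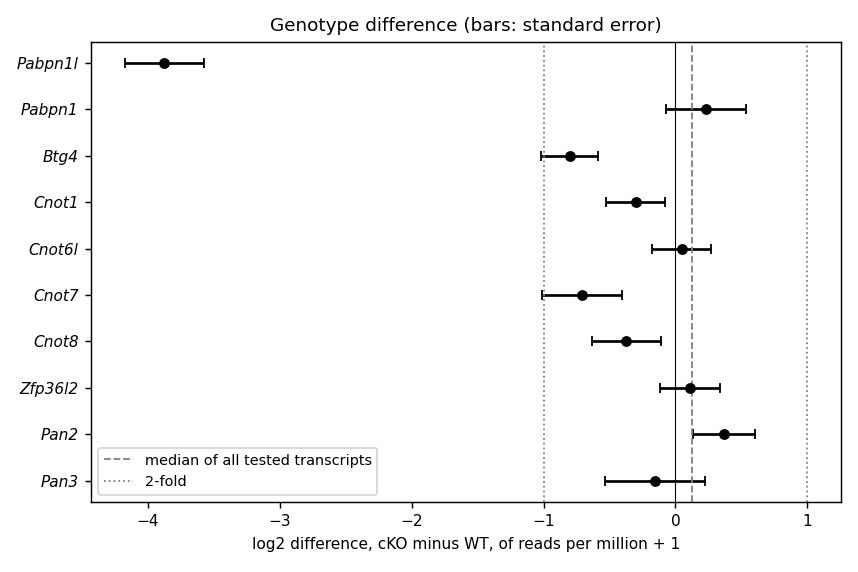
Difference between genotypes for the 10 genes, as cKO minus WT of log2(RPM + 1), with bars for the standard error of the limma fit, a dashed line at the median of all 18179 transcripts (0.12) and dotted lines at 2-fold. Pabpn1l at -3.88 lies far beyond the 2-fold line, Btg4 at -0.80 and Cnot7 at -0.71 (-0.44 to -1.03 with 1 library left out) lie short of it, and the other 7 lie between -0.37 and 0.37.

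All 10 rows passed the filter on low values. Of them, 1 (Pabpn1l) was called lower in the cKO and 0 higher, where 1.95% of all transcripts tested were called lower (355) and 3.76% higher (683). With each library centred on its median, 531 of all transcripts were called lower and 458 higher. Pabpn1l and Btg4 were the 2 genes with every cKO library below every WT library, which held for 7.14% of all transcripts, and 0 had every cKO library above, which held for 13.2%. Since Pabpn1l was selected on this contrast, nothing is read from these counts. Differences were below 0 in 6 of the 10 genes and above 0 in 4, with a median of -0.23. Over all transcripts 7208 were below 0 and 10971 above, with a median of 0.12.

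By level per kilobase in the WT, the order was Btg4 (1371 to 1633 RPM over the 3 oocytes), Pabpn1l (206 to 319), Cnot7 (30.4 to 69.6), Cnot8 (17.0 to 24.9), Cnot6l (13.7 to 19.6), Pan3 (5.61 to 11.6), Pabpn1 (5.59 to 9.00), Cnot1 (3.24 to 3.92) and Pan2 (2.10 to 3.40). Neighbours whose ranges overlapped were Cnot8 with Cnot6l, Pan3 with Pabpn1, and Cnot1 with Pan2. The place of Pabpn1 is that of its joint row, and Zfp36l2 was left out. In the cKO Btg4 remained first, at 787 to 939 RPM per kilobase. Pabpn1l, at 8.88 to 19.5, was below the range of Cnot7 (22.2 to 35.8) and overlapped Cnot6l (13.3 to 19.6), Cnot8 (11.3 to 20.8), Pan3 (4.13 to 12.4) and Pabpn1 (5.92 to 13.2). In the WT the Pabpn1l range lay above all of these.

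The profile of Pabpn1l over the 7 libraries was matched most closely by 5 genes, out of 6788 named transcripts with a mean of at least 8 RPM. Likeness was the root-mean-square difference of log2(RPM + 1) after subtracting each gene's mean. Gm13103 came first at 0.33, followed by Dhrs3 (0.57), Arid5b (0.66), Gm13058 (0.77) and Gm13088 (0.79). Gm13103, listed by RefSeq as Pramel27, was at 24.2, 35.9, 31.6 and 22.0 RPM in cKO libraries 1 to 4 and 473, 551 and 413 RPM in WT libraries 1 to 3. It and Gm13088 (Pramel22) are members of a tandem gene family with nearly the same sequence, which makes the assignment of reads to them uncertain. Dhrs3, which encodes a retinaldehyde reductase, had 41 reads over the 4 cKO libraries and 1211 reads over the 3 WT libraries. Arid5b, a gene for a DNA-binding protein, was at 20.7 to 65.7 RPM and 252 to 331 RPM. All 5 share with Pabpn1l a large step between the genotypes, which sets most of this measure.

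**Figure D4:**
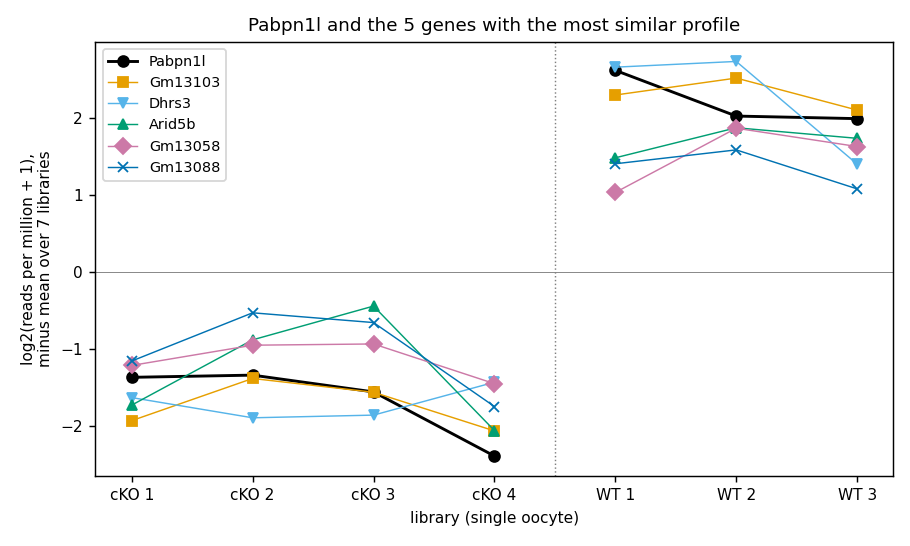
Log2(RPM + 1) of Pabpn1l and of the 5 genes with the most similar profile, each minus its own mean over the 7 libraries, with libraries along the horizontal axis (lines join libraries of 1 genotype for legibility only). All 6 genes lie below 0 in the 4 cKO oocytes and above 0 in the 3 WT oocytes, and Pabpn1l is lowest in cKO 4.

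A list of 80 further genes for mRNA decay in 7 groups had a row for 71, of which 69 passed the filter. Of these, 0 were called lower and 2 higher in the cKO, beside 1.95% and 3.76% of all transcripts, so both counts were near the background. Of the 2, Tut4 passed the filter on low values only through its cKO libraries, and with a filter on a mean of at least 4 RPM the count was 1. By limma with an unadjusted p under 0.05, 2 were lower (Cnot3 and Tnrc6b) and 5 higher, where 7.52% and 14.2% of all transcripts were. The 5 were Btg2, Tnrc6a, Dis3l, Exosc2 and Tut4, of which Tut4 is counted but, for the reason given, not read as a result. Voom on recovered reads also called 0 lower and 2 higher, again with Tut4 among the 2. Differences were below 0 in 22 and above 0 in 47, beside 7208 and 10971 of all transcripts, and the median of 0.16 was close to that of all transcripts, 0.12. With each library centred on its median, 32 of the listed genes were below 0 and 37 above. Every cKO library lay below every WT library in 2 genes, again Cnot3 and Tnrc6b, and above in 6 (7.14% and 13.2% of all transcripts). Of 4 BTG and TOB genes tested, which are relatives of Btg4, 0 had a difference below 0 and 0 were called, although 1 was below 0 without cKO library 3 and without WT library 3. Without cKO library 4 the whole list had 3 genes called higher, with Btg2 added, and 1 lower, Tnrc6b. Btg1 was at 140 to 348 RPM in the cKO and 116 to 165 RPM in the WT, Btg2 at 17.7 to 42.7 and 12.8 to 18.2 RPM (log2 difference 0.94, SE 0.30, limma adjusted p = 0.098), and Tob2 at 63.2 to 109 and 64.7 to 77.9 RPM.

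Exosc2, a subunit of the RNA exosome, was at 125, 97.6, 117 and 157 RPM in cKO libraries 1 to 4 and at 36.3, 29.4 and 62.1 RPM in WT libraries 1 to 3. All cKO oocytes were higher, with a log2 difference of 1.57 (SE 0.28, limma adjusted p = 0.011). Tut4, a terminal uridylyltransferase that adds uridines to short poly(A) tails, had 20, 27, 19 and 39 reads in cKO libraries 1 to 4 and 1, 2 and 0 reads in WT libraries 1 to 3. It was thus near the limit of detection in the WT and low in the cKO, at 1.65 to 4.54 RPM. Since it entered the fit only through the group in which it is higher, no p is given for it. Its fitted log2 difference of 1.68 depends on the pseudocount and ranged from 0.57 to 4.52 over the alternatives. The ratio of its pooled reads per mapped read was 29.8 (95% exact interval 9.92 to 147, counting error only). That interval takes reads as independent and leaves out amplification and the spread between oocytes. Without WT library 1, and without WT library 2, Exosc2 did not pass the threshold (limma adjusted p = 0.053 and 0.063). The list then had 0 genes called higher, and no call is read for Tut4 in any fit.

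The group of uridylation and 3′ to 5′ decay genes held both Exosc2 and Tut4, 2 of 19 tested, beside 3.76% of all transcripts called higher. Nothing is read from so small a count. The other subunits named in it did not pass, Exosc8 being at 191 to 333 RPM in the cKO and 198 to 326 RPM in the WT, Exosc1 at 130 to 222 and 109 to 162 RPM, and Exosc7 at 101 to 158 and 146 to 186 RPM. Among 6 further CCR4-NOT subunits 0 passed: Cnot4 was at 108 to 160 RPM in the cKO and 90.1 to 124 RPM in the WT, Cnot9 at 27.7 to 214 and 24.2 to 200 RPM, and Cnot2 at 38.5 to 121 and 54.3 to 131 RPM. For Cnot2 and Cnot9 the lowest value in each genotype was again that of cKO library 4 and WT library 3. The rows of Exosc8, Exosc7 and Cnot9 were deposited under the name of a gene of the opposite strand, so the limit of strand holds for them.

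Among 13 RNA-binding adaptors 0 passed, beside 1.95% of all transcripts called lower and 3.76% called higher, so nothing is read from this count. Ythdf2, a reader of methylated adenosine, was at 87.9 to 461 RPM in the cKO and 98.4 to 284 RPM in the WT, Pum2 at 36.5 to 59.8 and 54.5 to 58.4 RPM, and Ythdf3 at 37.2 to 54.4 and 42.7 to 65.5 RPM. Tnrc6b, which links microRNA complexes to CCR4-NOT and, like Cnot3, Tnrc6a and Dis3l, is named after its value was seen, had 26.4 to 36.7 RPM in the cKO and 50.6 to 71.9 RPM in the WT. Its groups did not overlap and its limma adjusted p was 0.038, but its difference of -0.94 (SE 0.23) was short of 2-fold. Among 5 other deadenylase genes 0 passed, beside the same shares of all transcripts, and nothing is read from this count either. Angel2 was at 98.7 to 133 RPM in the cKO and 100.5 to 133 RPM in the WT, Noct at 66.2 to 99.8 and 83.1 to 135 RPM, and Parn at 24.6 to 38.8 and 24.1 to 26.6 RPM.

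Of 6 genes for other poly(A)-binding proteins and their partners, 0 passed the threshold, beside 1.95% of all transcripts called lower and 3.76% called higher. Their median difference was -0.10, beside 0.12 over all transcripts. Paip2, an inhibitor of the cytoplasmic poly(A)-binding protein, was at 532 to 669 RPM in the cKO and 579 to 696 RPM in the WT, Paip1 at 151 to 295 and 216 to 430 RPM, and Paip2b at 91.3 to 106 and 102 to 111 RPM. Among 16 genes for decapping and 5′ to 3′ decay 0 passed as well, beside the same shares of all transcripts. The row taken for Edc4 shares only 0.0804 of the joint span with that gene and covers Nrn1l. That of Lsm1 also covers Star. That of Lsm3 (0.517) was deposited as Xpc, a gene of the opposite strand, so the limit of strand holds for it. Lsm3 was at 345 to 831 RPM in the cKO and 358 to 744 RPM in the WT, Lsm6 at 216 to 427 and 243 to 384 RPM, and Lsm5 at 152 to 406 and 151 to 377 RPM, with cKO library 4 and WT library 3 the highest of their genotype in all 3.

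**Figure D5:**
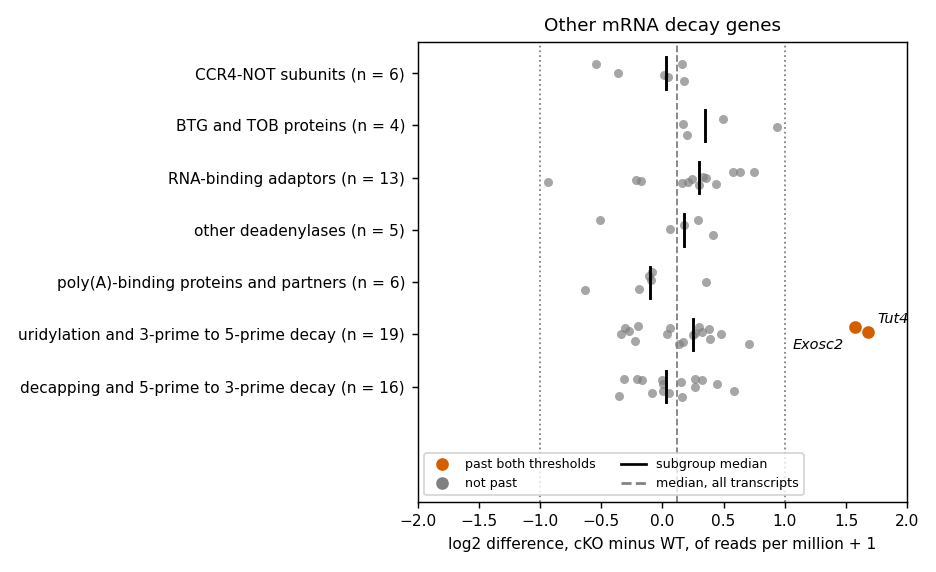
Difference between genotypes (cKO minus WT of log2(RPM + 1)) for 69 further mRNA decay genes in 7 groups, 1 point for a gene, with a black line at the median of each group, a dashed line at the median of all transcripts and dotted lines at 2-fold. Exosc2 at 1.57 was called higher and 0 genes were called lower. Tut4, at 1.68, entered the fit only through its cKO libraries, and its place depends on the pseudocount.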

How the data were processed

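Single-oocyte cDNA was amplified for 12 cycles and sequenced on the Illumina platform. The authors mapped the reads to GRCm38, removed low-quality alignments and counted reads over a set of oocyte transcripts with merged isoforms in SeqMonk, and per the labels bcl2fastq 1.8.4 and featureCounts 1.4.4 were also used. Whether counting used strand is not given in the sources used here. The deposited values were log2 RPM (reads scaled to 1000000 mapped reads), and no counts were used as deposited. The authors called differential expression with DESeq2 on reads. Here the log2 values were turned back to RPM, and a value written for 0 reads was set to 0. Every other value came to a whole number of reads within 0.001 of its own size. This tolerance grows with the value, so for transcripts of many reads the check could not fail. Since deposited units were not counts, log2(RPM + 1) was fitted with limma 3.58.1 (lmFit and eBayes with a trend, R 4.3.3) over 18179 transcripts with at least 1 RPM in at least 3 of the 7 libraries. P-values were adjusted by Benjamini-Hochberg over all of them, and a transcript was called at an adjusted p under 0.05 and more than 2-fold. No pairing of replicates beyond their number is given, so no block was used in the main fit. Correlations of deviations between same-numbered oocytes were 0.19, 0.29 and -0.13, and between differently numbered ones -0.55 to 0.43. So few values, without cKO library 4, cannot show whether replicates were paired.

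A row was taken by its deposited gene name on the same strand, keeping the row with the highest mean, and otherwise by GENCODE M21, where span and gene shared at least 0.5 of their union on 1 strand. This located 4 of the 10 genes and 15 of the 71 listed decay genes with a row, in rows that carried the name of another gene, of the same or the opposite strand. Some rows taken by deposited name shared little of the joint span with their gene, as for Edc4 (0.0804), Exosc3 (0.156) and Samd4 (0.165). The genes, lists and tests were chosen with earlier results of these data known. Genes named in the text were the 10 members, every listed gene called, the 3 with the highest mean RPM in each of the 7 groups, named neighbours of Pabpn1l within 50 kb and the 5 most similar profiles. Nanos2, Samd4, Cnot3, Tnrc6a, Tnrc6b and Dis3l fall outside this rule and were named after their values were seen. The script was tested on simulated data. The reads of a value limit its precision, 1 read being 0.0771 to 0.117 RPM, and amplification and the spread between oocytes add to its error. Intervals cover counting error only, with reads pooled over oocytes and taken as independent. Reads carried no molecular identifiers, so copies of 1 molecule cannot be told apart and the intervals may be too narrow. Upstream windows and gene names came from RefSeq tables (GRCm38.p6), which held a window for 7 of the 10 genes.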

Additional observations from a re-analysis of the deposited data

Results flagged for a closer look

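Among 33 named genes, the 4 cKO libraries were searched for a value far from the others by Dixon's gap, the distance to the nearest value over the whole range. Chance flags about 1 group in 20. Cnot4, a subunit linked to CCR4-NOT with ubiquitin ligase activity, was picked out with a gap of 0.862: it was at 160 RPM in cKO library 4 and at 108 to 115 RPM in the other 3 cKO libraries, while the WT libraries lay at 90.1 to 124 RPM. cKO library 4 is also the shallowest, with 8582493 mapped reads, and lies apart on the second principal component. The part of either in this value was not tested.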

How the results depend on the processing

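Under 18 alternative fits the log2 difference of Pabpn1l ranged from -4.03 to -3.56. Only Btg4 and Pan2 moved by more than their spread between oocytes, Btg4 to -0.96 with libraries centred on the median and to -0.47 with quantile normalisation, and Pan2 to 0.10 without cKO library 4 and WT library 3, a choice made after seeing the data, as was naming rows by the deposited gene name alone. Signs changed for Cnot6l (below 0 in 4 of 18), Pabpn1 (2), Zfp36l2 (1) and Pan3 (15). Centring moved the median of all transcripts from 0.12 to -0.03, and the called transcripts from 355 lower and 683 higher to 531 and 458. Quantile normalisation gave 442 and 428. The listed decay genes called higher were 1 with a pseudocount of 5 RPM and 1 with a mean of at least 4 RPM, where Tut4 is smoothed or filtered away. Leaving out 1 library gave 0 to 3 higher, with Tut4 counted wherever it passed, and 0 to 1 lower. With centring, Tnrc6b made 1 gene lower. With the replicate block, which leaves out the unpaired cKO library 4, 1 gene was lower and 3 were higher, and 479 and 924 of all transcripts were called. Without WT library 2, 117 of all transcripts were lower and 172 higher. Exosc2 was called in 16 of 18 alternatives (limma or voom adjusted p 0.00017 to 0.063). Rows of near-identical or overlapping genes, 1 oocyte for each library and 3 against 4 libraries limit these values, and genes under 3 reads (0.231 to 0.350 RPM) could not be told from absent.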
